A study of Mus musculus with 9 samples.

Results

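The genes described here are 36 genes of fatty acid beta-oxidation and ketone body synthesis in mouse liver, taken as a fixed list of named genes out of 27179 rows of a count table. They were grouped by step: the regulator Ppara (1 gene), acyl-CoA synthetases (2), carnitine-dependent entry (5), mitochondrial acyl-CoA dehydrogenases (6), the later mitochondrial steps (8), electron transfer (3), peroxisomal oxidation (9) and ketone bodies (2). All 36 had a row in the table, and all 36 passed the filter on low counts. The livers came from Apoe-/- mice (5 libraries, which the labels call WT) and from Mif-2-/-Apoe-/- mice (4 libraries, called DKO). The latter carry a global deletion of Mif-2, the gene Ddt, on the same Apoe-/- background. The study describes its 12-week livers as those of female mice and also reports male livers. Its methods do not name the sex for the sequenced sections. Both genotypes lacked Apoe and received a cholesterol-rich high-fat diet (HFD) for 12 weeks from 8 weeks of age. There was therefore no group with intact Apoe and none on a control diet. Each library was made with the Smart-seq2 protocol from RNA of 3 to 4 pooled frozen liver sections, and the labels do not say that each came from a separate mouse, although the study counts its samples as mice, so p-values measure the spread between these libraries. The comparison asked how Mif-2 deficiency in Apoe-/- mice bears on the liver transcripts of these steps.

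Fatty acids are activated to acyl-CoA, enter mitochondria as carnitine esters, and are shortened there in repeated cycles of dehydrogenation, hydration, a further dehydrogenation and thiolysis. Very long-chain and branched acyl chains, bile acid intermediates and dicarboxylic acids are shortened in peroxisomes by a parallel set of enzymes. Electrons from the mitochondrial acyl-CoA dehydrogenases pass through the electron transfer flavoprotein to ubiquinone. The liver turns much of the acetyl-CoA into ketone bodies for export, and the nuclear receptor PPARalpha, the product of Ppara, raises transcription of many of these genes during fasting.

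Total counts ranged from 2886407 to 10764182 in Apoe-/- libraries and from 2318148 to 5467917 in Mif-2-/-Apoe-/- libraries. Ddt was at 233 to 972 CPM (counts per 1000000, scaled by the trimmed mean of M-values, TMM) in Apoe-/- and at 2.51 to 5.49 CPM in Mif-2-/-Apoe-/- libraries (log2 fold change 7.27, edgeR adjusted p 2.2e-05), so it followed the genotype labels in all 9. A pair of libraries stood apart from their groups. The 10 most abundant genes took 20.5% to 23.7% of counts in Apoe-/- replicates 1 to 4 and 14.7% in Apoe-/- replicate 5, whereas they took 12.5%, 16.98% and 13.3% in Mif-2-/-Apoe-/- replicates 1, 4 and 3 and 26.3% in Mif-2-/-Apoe-/- replicate 2. The list of 25 hepatocyte markers overlaps these genes: 18 of the 25 lay outside the 10 most abundant, and the rest were among them. Their sum therefore partly restates this share. The 25 markers summed to 128222 CPM (of all counts) in Apoe-/- replicate 5 and 211275 to 238950 in the other Apoe-/- libraries. They summed to 242696 in Mif-2-/-Apoe-/- replicate 2 and 109501 to 136708 in the other Mif-2-/-Apoe-/- libraries. Summed nuclear RNAs (Malat1, Neat1 and Meg3) ran the other way, at 1951 CPM in Apoe-/- replicate 5 and 409 in Mif-2-/-Apoe-/- replicate 2. In bulk tissue, fewer cells of a type and less RNA per cell cannot be told apart.

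Promoter sequences are shown for 4 of the 6 members whose libraries separated by genotype (the others, Acox2 and Bdh1, have 2 RefSeq starts each, with a CCAAT box before 1 start of Acox2 as their only match), and for Etfa, one of the 3 members that edgeR called when a library was left out, because PPARalpha with its partner RXR binds direct repeats of the half-site AGGTCA spaced by 1 base. The 250 bases before each RefSeq start (build GRCm38.p6, 31 of the 36 members matched) were searched on both strands for 2 such half-sites with at most 2 mismatches in all. Decr1, Acat1, Crat, Acaa2 and Hsd17b4 were not matched. A match lay before Echs1 and Etfa, 2 of 31 members (6.45%), beside 3.72% of all genes with a promoter. The NRF1 core GCATGCGC lay before 5 members (16.1%), namely Acad10, Acadm, Etfa, Etfdh and Ppara, beside 2.56% of all genes. CCAAT occurred in 14 members (45.2%) beside 37.5% of all genes, while TCAAGGTCA (0.422% of all genes), TGACGTCA (1.77%) and TATAAA (14.3%) were found in none of the 31. These are letter matches in a short window, and the motifs searched do not overlap one another in the sequences below. Capitals mark them, every sequence runs 5′ to 3′ on the strand of its gene, and bases that an annotated exon covers were left out.
Ehhadh, chr16:21787835-21788084, minus strand, CCAAT box on the opposite strand in capitals: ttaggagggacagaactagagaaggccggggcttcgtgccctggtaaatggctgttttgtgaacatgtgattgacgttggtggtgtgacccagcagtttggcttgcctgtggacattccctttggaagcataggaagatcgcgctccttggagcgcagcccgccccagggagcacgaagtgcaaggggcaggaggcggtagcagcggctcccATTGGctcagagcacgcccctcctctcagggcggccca
Acads, chr5:115119347-115119596, minus strand, no match: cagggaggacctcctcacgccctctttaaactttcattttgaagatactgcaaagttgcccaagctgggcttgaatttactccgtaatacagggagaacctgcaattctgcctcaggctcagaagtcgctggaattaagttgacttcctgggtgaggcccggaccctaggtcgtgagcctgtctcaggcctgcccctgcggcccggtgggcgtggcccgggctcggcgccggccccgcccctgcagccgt
Echs1, chr7:140116477-140116671, minus strand, repeat of AGGTCA in capitals: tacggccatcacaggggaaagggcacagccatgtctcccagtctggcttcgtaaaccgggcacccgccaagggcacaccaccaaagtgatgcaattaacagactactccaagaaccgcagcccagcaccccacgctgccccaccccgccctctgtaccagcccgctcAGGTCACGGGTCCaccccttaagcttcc
Acsf3, chr8:122775424-122775485, plus strand, no match in these 62 bases: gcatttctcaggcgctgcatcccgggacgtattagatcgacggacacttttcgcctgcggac
Etfa, chr9:55512244-55512493, minus strand, NRF1 core, repeat of AGGTCA and CCAAT boxes in capitals: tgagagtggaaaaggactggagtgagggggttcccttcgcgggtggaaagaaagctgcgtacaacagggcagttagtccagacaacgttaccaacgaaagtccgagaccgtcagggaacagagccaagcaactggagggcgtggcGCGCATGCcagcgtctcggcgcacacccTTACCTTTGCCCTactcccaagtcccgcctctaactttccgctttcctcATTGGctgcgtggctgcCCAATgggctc

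Levels differed widely between members. On a per-length scale (mean CPM per kilobase of annotated exon, Apoe-/- libraries), the peroxisomal thiolase gene Acaa1b led at 5069 ± 796 (SD, n = 5), followed by Etfb at 2475 ± 868, the mitochondrial thiolase gene Acaa2 at 864 ± 239.8 and the very-long-chain dehydrogenase gene Acadvl at 374 ± 56.7. Each of these differed from the next in this order by more than the sum of their SDs. At the low end stood Hadhb at 4.46 ± 0.642, Etfdh at 2.11 ± 0.938 and Pex11a, a peroxisome division factor, at 0.272 ± 0.358. In the Mif-2-/-Apoe-/- libraries the same genes read 5432 ± 1545, 1265 ± 734, 347 ± 191, 258 ± 37.6, 4.29 ± 0.893, 2.28 ± 1.78 and 0.416 ± 0.330 CPM per kilobase (SD, n = 4). Acaa1b alone held 39.8% to 65.8% of the counts of all 36 genes. The plot of levels by library shows this range.

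**Figure D1:**
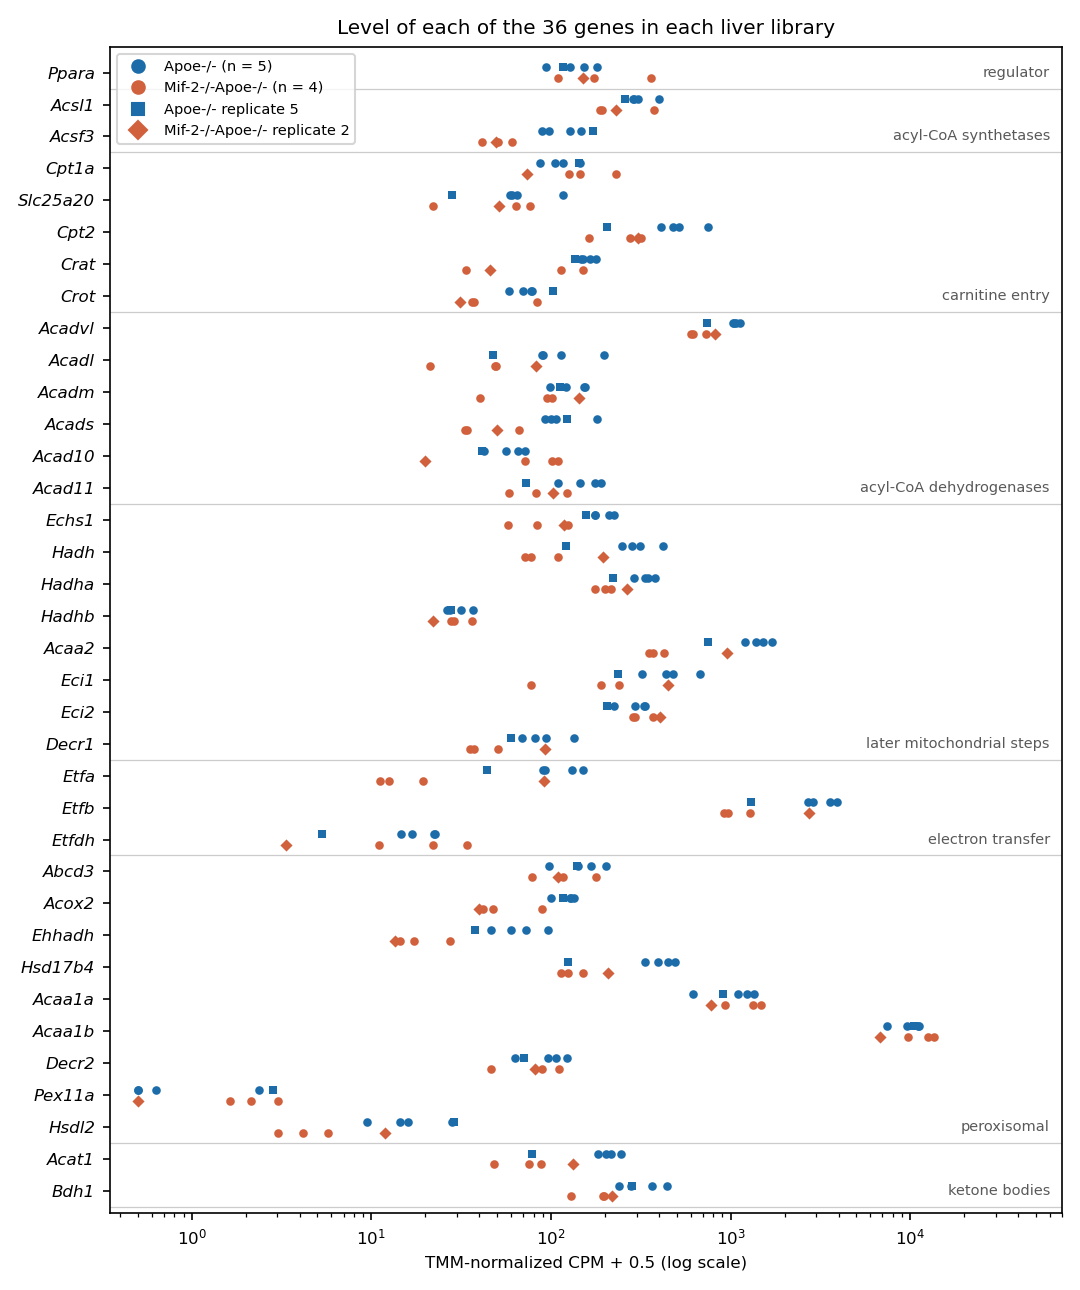
TMM-normalized CPM plus 0.5 (log axis) of the 36 genes, grouped by step, in each of the 5 Apoe-/- (blue) and 4 Mif-2-/-Apoe-/- (orange) libraries; the square is Apoe-/- replicate 5 and the diamond Mif-2-/-Apoe-/- replicate 2. Acaa1b lies highest, between 6788 and 13560.3 CPM, and Pex11a lowest, between 0 and 2.52 CPM.

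On the TMM scale, though not on the scale of hepatocyte markers, most transcripts of the pathway had higher mean levels in Apoe-/- than in Mif-2-/-Apoe-/- livers, and no member passed the edgeR test after adjustment over all genes. Of 36 members, 28 (77.8%) had a log2 fold change above 0, with a median of 0.72 (Apoe-/- over Mif-2-/-Apoe-/-) and a range from -0.58 (Ppara) to 1.81 (Ehhadh) apart from Pex11a, whose counts were too low for a fold. Over all 16860 genes tested, 43.5% lay above 0 and the median was -0.17. edgeR called 0 of 36 at an adjusted p under 0.05, where it called 22 genes in all (0.130%), and the smallest adjusted p of a member was 0.127 for Ehhadh. At an unadjusted p under 0.05, 15 members were higher in Apoe-/- and 0 were lower, beside 6.52% of all genes higher and 8.99% lower. DESeq2 called 8 members higher and 0 lower, beside 2.52% of genes called higher and 2.75% called lower by it, namely Acsf3, Acads, Echs1, Hadh, Acaa2, Acox2, Ehhadh and Hsd17b4. The libraries of the genotypes did not overlap at 6 members, all higher in Apoe-/-, beside 2.24% of all genes that separated in that direction and 2.03% in the other.

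The markers of hepatocytes moved with this lean, and their part in it was not tested. For the 18 hepatocyte markers in the fit, the median log2 fold change was 0.86 (Apoe-/- over Mif-2-/-Apoe-/-). The sums per library given above, and the scaling that follows, use all 25 markers. When libraries were scaled to hepatocyte markers instead of by TMM, the median of all genes moved from -0.17 to -0.84 and that of the members from 0.72 to 0.016. On that scale 18 of 36 members were above 0, 2 were higher and 3 lower at an unadjusted p under 0.05, and 3 did not overlap between genotypes. Apoe-/- replicate 5 was the lowest of its group at 21 members (58.3%, beside 22.1% of all genes), and Mif-2-/-Apoe-/- replicate 2 was the highest of its group at 15 (41.7%, beside 24.3%). Without Apoe-/- replicate 5, 14 members did not overlap and edgeR called Hsd17b4 alone. Without Mif-2-/-Apoe-/- replicate 2, 15 did not overlap and edgeR called Acaa2 and Etfa. In the share of the most abundant genes, Apoe-/- replicate 5 was the lowest of its group and Mif-2-/-Apoe-/- replicate 2 the highest of its own. Leaving out either of them widens the gap between genotypes by the way it was picked. Without Mif-2-/-Apoe-/- replicate 3, which was the lowest of all 9 libraries at 19 members, 9 members were higher at an unadjusted p under 0.05. For the hepatocyte scale and the fits without a library, the matching counts over all genes are not given here. Those counts of members therefore have no background to be set against.

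**Figure D2:**
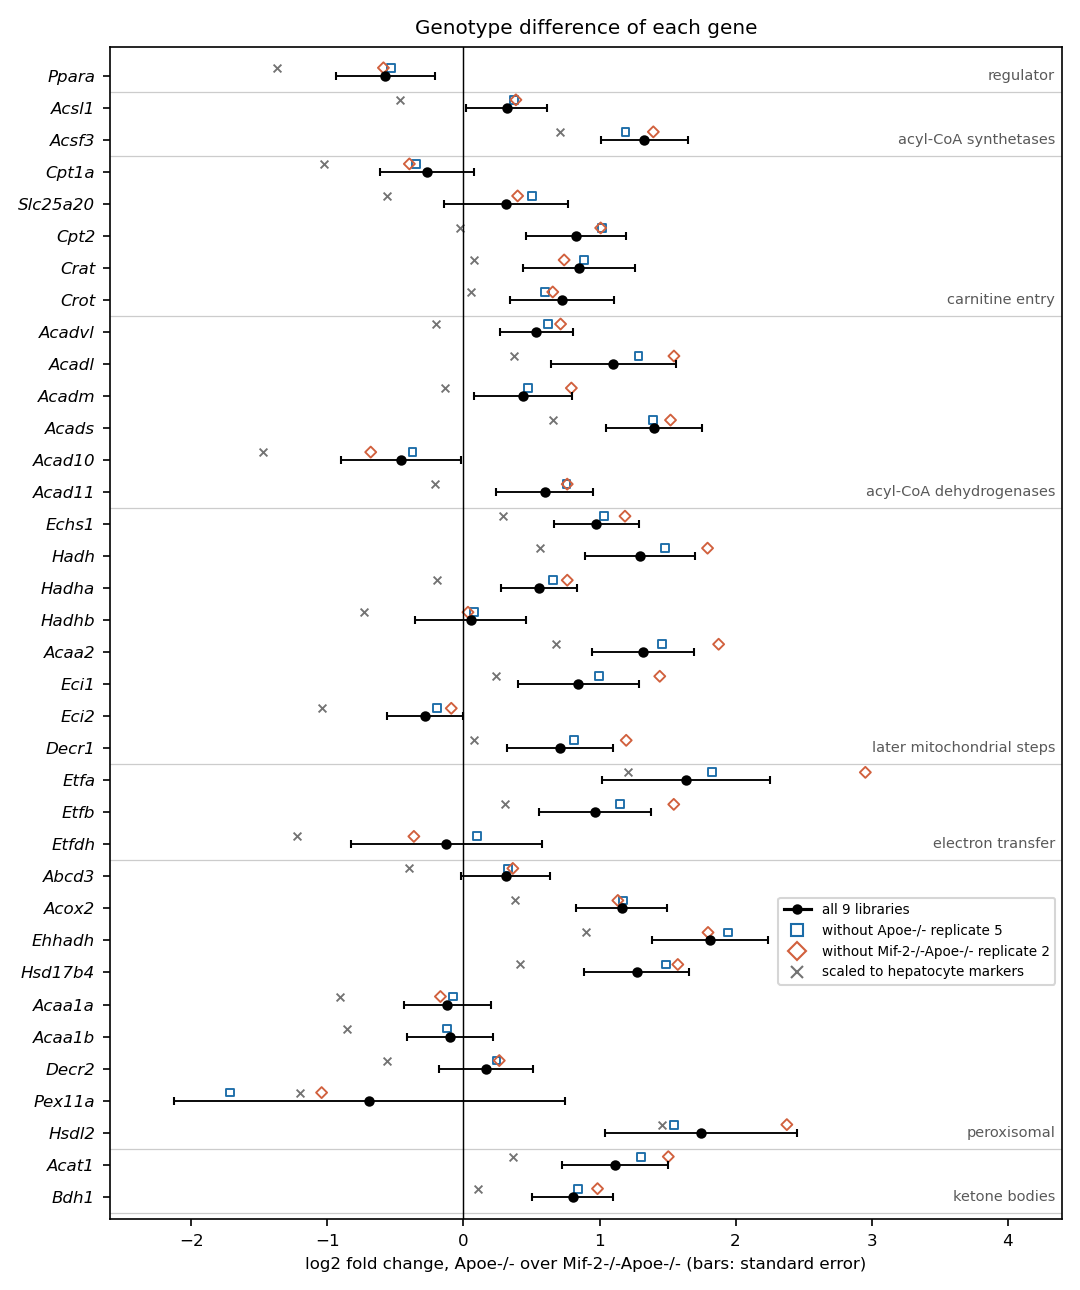
Log2 fold change of each gene, Apoe-/- over Mif-2-/-Apoe-/-, from the edgeR fit of all 9 libraries (black, bars are the standard error), without each of the libraries that stood apart (open symbols) and after scaling to hepatocyte markers (crosses). Most points lie right of 0 for Ehhadh (1.81), Etfa (1.63) and Acads (1.40), whereas the crosses lie to the left of the black points for all 36 genes, with a median of 0.016; Acaa1b has no value without Mif-2-/-Apoe-/- replicate 2 because it then falls among the 10 genes left out.

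The regulator Ppara, which encodes the fasting-induced nuclear receptor, had a value below 0, unlike most of the enzyme genes. It read 93.6, 127, 152, 180.0 and 116 CPM in Apoe-/- replicates 1 to 5 and 362, 151, 109 and 173 CPM in Mif-2-/-Apoe-/- replicates 1 to 4. Mif-2-/-Apoe-/- replicate 1 was the highest of the 9 and the others overlapped (log2 fold change -0.58 ± 0.36 SE, edgeR adjusted p 0.472).

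Of the acyl-CoA synthetases, Acsf3, which encodes a mitochondrial synthetase of malonyl-CoA and methylmalonyl-CoA, separated the genotypes, and Acsl1, the main long-chain synthetase gene of liver, did not. Acsf3 was at 146, 127, 96.7, 88.5 and 170.2 CPM in Apoe-/- replicates 1 to 5 and at 50.2, 48.8, 60.0 and 40.7 CPM in Mif-2-/-Apoe-/- replicates 1 to 4. Every Apoe-/- library exceeded every Mif-2-/-Apoe-/- library, with means of 125.5 ± 33.9 (SD, n = 5) and 49.9 ± 7.90 (SD, n = 4). The log2 fold change was 1.33 ± 0.32 (SE). Its adjusted p was 0.128 in edgeR and 0.00178 in DESeq2. Its exact permutation p, not adjusted over genes, was 0.0079, the smallest that rearranging the libraries allows. Acads, Echs1, Acox2 and Ehhadh had the same exact permutation p. Unlike for most members, Apoe-/- replicate 5 was the highest library of its group for Acsf3. Acsl1 ranged from 258 to 397 CPM in Apoe-/- and from 187 to 374 CPM in Mif-2-/-Apoe-/- libraries (log2 fold change 0.32 ± 0.30, edgeR adjusted p 0.652).

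In carnitine-dependent entry, Cpt1a, the rate-limiting outer-membrane carnitine palmitoyltransferase gene, and Cpt2, its inner-membrane partner, had log2 fold changes on opposite sides of 0. Cpt1a read 116, 105, 86.9, 144 and 142 CPM in Apoe-/- replicates 1 to 5 and 229, 72.7, 125 and 144 CPM in Mif-2-/-Apoe-/- replicates 1 to 4. The groups overlapped fully, at a log2 fold change of -0.27 ± 0.34 (SE, edgeR adjusted p 0.759). For Cpt2 the levels were 514, 408, 475, 748 and 204 CPM against 316, 305, 162 and 275 CPM in the same order. Without Apoe-/- replicate 5, every Apoe-/- library lay above every Mif-2-/-Apoe-/- library (all libraries: 0.83 ± 0.37 SE, edgeR p 0.0398, adjusted p 0.298). Slc25a20, the carnitine-acylcarnitine translocase of the inner membrane, spanned 27.7 to 116 CPM and 21.4 to 75.7 CPM. The carnitine acyltransferase genes Crat (short chains) and Crot (peroxisomal medium chains) had log2 fold changes of 0.85 ± 0.41 and 0.72 ± 0.38 (SE), with edgeR adjusted p of 0.341 and 0.379. Crot was at 58.1 to 102 CPM in Apoe-/- libraries and at 30.7 to 36.6 CPM in 3 Mif-2-/-Apoe-/- libraries, and the remaining one, replicate 1, reached 83.0 CPM. The median of the arm was 0.72, with 1 of 5 members higher at an unadjusted p under 0.05.

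Among the mitochondrial acyl-CoA dehydrogenases, the short-chain gene Acads had the largest log2 fold change, and the very-long-chain gene Acadvl the highest level. Acads read 107, 180.2, 91.6, 100.2 and 122 CPM in Apoe-/- replicates 1 to 5 and 33.6, 49.4, 66.3 and 32.9 CPM in Mif-2-/-Apoe-/- replicates 1 to 4. The genotypes did not overlap (means 120.0 ± 35.4 and 45.5 ± 15.8 CPM, SD; log2 fold change 1.40 ± 0.35 SE; adjusted p 0.137 in edgeR, 0.00801 in DESeq2). Acadvl stood at 1132, 1047, 1028, 1073 and 741 CPM against 618, 816, 602 and 733 CPM. Only Apoe-/- replicate 5 reached into the range of the other genotype (0.54 ± 0.27 SE, edgeR adjusted p 0.360), and 42.9% of the annotated exon bases of Acadvl are also exon of Dvl2 on the other strand, which unstranded counts cannot tell apart. Acadl, a long-chain dehydrogenase gene, had 47.0 to 196 CPM against 20.7 to 82.3 CPM (1.10 ± 0.46 SE, edgeR p 0.0306, adjusted p 0.273). Acadm, the medium-chain gene, differed less, with 98.5 to 155 CPM against 39.8 to 143 CPM (0.43 ± 0.36 SE). Of the less characterized members, Acad11 was at 0.60 ± 0.36 and Acad10 at -0.46 ± 0.44 on the log2 fold change scale, and both overlapped between genotypes. The median of the 6 was 0.57, with 2 higher at an unadjusted p under 0.05.

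Of the 8 genes of the later mitochondrial steps, DESeq2 called 3 higher, Echs1, Hadh and Acaa2, beside 2.52% of all genes with an adjusted p. Echs1, the short-chain enoyl-CoA hydratase gene, read 175, 176, 209, 223 and 156 CPM in Apoe-/- replicates 1 to 5 and 124, 118, 56.9 and 83.2 CPM in Mif-2-/-Apoe-/- replicates 1 to 4. The lowest Apoe-/- library stayed above the highest Mif-2-/-Apoe-/- library (0.98 ± 0.31 SE, adjusted p 0.175 in edgeR, 0.0193 in DESeq2). Hadh, which encodes the medium- and short-chain hydroxyacyl-CoA dehydrogenase, gave 283, 311, 249, 419 and 120.4 CPM against 109, 195, 70.8 and 77.0 CPM. For Acaa2, whose product is the thiolase that ends each cycle, the levels were 1516, 1389, 1201, 1698 and 747 CPM against 428, 956, 349 and 369.7 CPM. In both genes Apoe-/- replicate 5 was the lowest of its group and Mif-2-/-Apoe-/- replicate 2 the highest of its own, and these were the only libraries in the overlap. The log2 fold changes were 1.30 ± 0.41 for Hadh and 1.32 ± 0.38 for Acaa2 (SE), with edgeR adjusted p of 0.174 and 0.154 and DESeq2 adjusted p of 0.0495 and 0.0225.

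Hadha and Hadhb encode the alpha and beta subunits of the mitochondrial trifunctional protein, which carries out the last steps on long chains. They are transcribed away from each other on chromosome 5, with 272 bases between the RefSeq starts and 85 between the outermost GENCODE starts. None of the motifs searched lay in the 228 bases that both upstream windows share. The exon-free part of that stretch is shown because it lies before the start of both genes.
Hadha and Hadhb, chr5:30155163-30155230, plus strand, no match: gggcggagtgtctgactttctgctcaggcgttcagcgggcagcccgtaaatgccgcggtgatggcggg

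Hadha was at 289.6, 381, 346, 335 and 221 CPM in Apoe-/- replicates 1 to 5 and at 176, 265, 200.3 and 214 CPM in Mif-2-/-Apoe-/- replicates 1 to 4. Hadhb was at 26.8, 31.1, 25.8, 36.1 and 27.3 CPM and at 27.2, 21.6, 28.5 and 35.9 CPM. The counts of Hadha exceeded those of Hadhb by 5.96 to 13.3 times within a library, although their proteins join in a single complex, and per kilobase of exon the means were 36.004 ± 7.06 and 4.46 ± 0.642 CPM in Apoe-/- libraries (SD, n = 5). Of the 100-base stretches of annotated Hadhb transcripts, 14.8% also occur in transcripts of the pseudogenes Gm13910 and Gm9108, against 0 of those of Hadha. How such reads were counted is not known, and their part in the gap between the genes was not tested. The log2 fold changes were 0.56 ± 0.28 for Hadha and 0.05 ± 0.41 for Hadhb (SE, edgeR adjusted p 0.360 and 0.966). Of the auxiliary enzymes for unsaturated chains, the isomerase gene Eci1 was at 0.85 ± 0.45 and the dienoyl-CoA reductase gene Decr1 at 0.71 ± 0.39, while the isomerase gene Eci2 was at -0.28 ± 0.28. Their libraries overlapped between genotypes. The arm's median was 0.78, with 3 of 8 higher at an unadjusted p under 0.05.

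**Figure D3:**
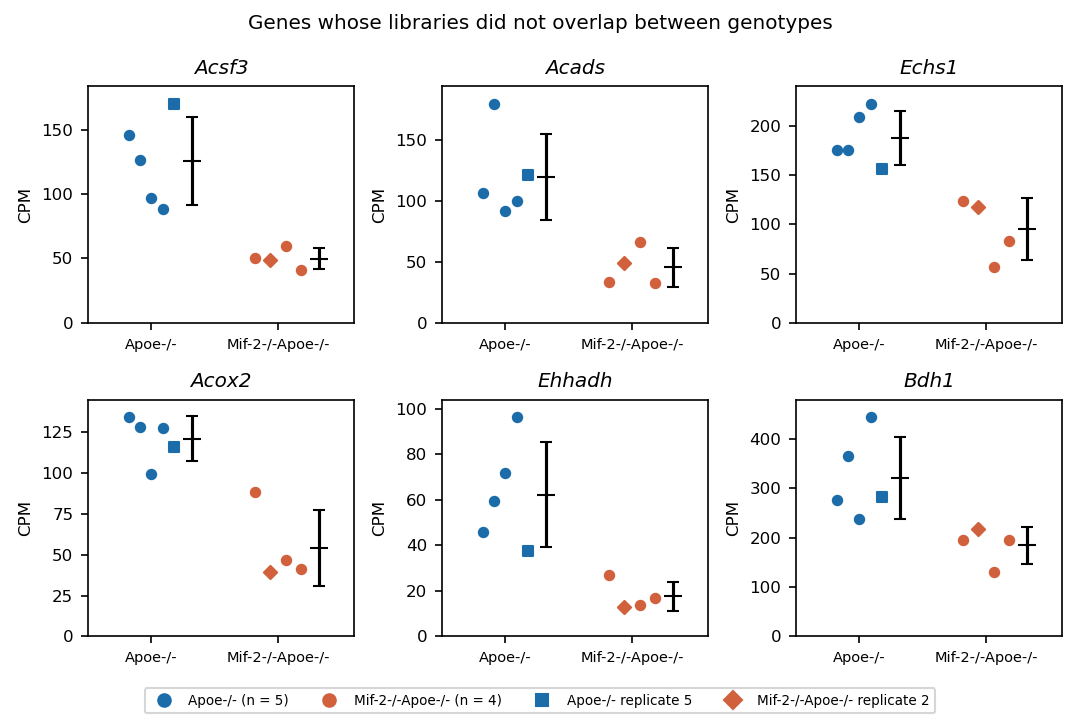
TMM-normalized CPM (linear axis from 0) of the 6 genes whose libraries did not overlap between genotypes, with each library as a point and the mean ± SD beside it; the square is Apoe-/- replicate 5 and the diamond Mif-2-/-Apoe-/- replicate 2. For Acsf3 the Apoe-/- libraries lie between 88.5 and 170.2 CPM and the Mif-2-/-Apoe-/- libraries between 40.7 and 60.0 CPM.

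The median log2 fold change in electron transfer was 0.97, and the values of its genes depended on single libraries. Etfa and Etfb encode the subunits of the electron transfer flavoprotein, and Etfdh the membrane enzyme that passes its electrons to ubiquinone. Etfa read 90.0, 92.4, 150.2, 130.0 and 43.6 CPM in Apoe-/- replicates 1 to 5 and 18.9, 90.9, 12.1 and 10.7 CPM in Mif-2-/-Apoe-/- replicates 1 to 4. Mif-2-/-Apoe-/- replicate 2 lay above Apoe-/- replicates 1 and 5, and the other 3 lay below every Apoe-/- library. The log2 fold change was 1.63 ± 0.62 (SE, edgeR p 0.0189, adjusted p 0.234) with all libraries and 2.95 (edgeR adjusted p 0.0213) without Mif-2-/-Apoe-/- replicate 2. Etfb read 2881, 2714, 3579.8, 3925 and 1307 CPM against 966, 2730.5, 913 and 1281 CPM in the same order (0.97 ± 0.41 SE, edgeR adjusted p 0.280). Here Mif-2-/-Apoe-/- replicate 2 lay above Apoe-/- replicates 2 and 5, and the other 3 Mif-2-/-Apoe-/- libraries lay below every Apoe-/- library. Its exons are overlapped for 58.2% of their bases by other annotated genes, mainly Gm45233 on the same strand. Etfdh was low and spread, at 4.84 to 22.1 CPM against 2.84 to 33.6 CPM (-0.13 ± 0.70 SE), and its sign turned in 3 of the 9 fits that leave out a library.

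The peroxisomal arm was split, with a median of 0.31. Ehhadh, Acox2, Hsd17b4 and Hsdl2 were higher in Apoe-/- at an unadjusted p under 0.05, and the thiolase genes Acaa1a and Acaa1b, with the bulk of the counts, had values near 0. Ehhadh, the L-bifunctional enzyme gene that acts on dicarboxylic acids, gave the largest log2 fold change of all 36 members. It read 46.0, 59.7, 71.8, 96.4 and 37.4 CPM in Apoe-/- replicates 1 to 5 and 26.8, 13.1, 13.9 and 16.7 CPM in Mif-2-/-Apoe-/- replicates 1 to 4. The genotypes did not overlap (means 62.2 ± 23.2 and 17.6 ± 6.35 CPM, SD; 1.81 ± 0.43 SE; adjusted p 0.127 in edgeR, 8.6e-04 in DESeq2). Acox2, the oxidase gene for branched chains and bile acid intermediates, stood at 134, 128, 99.5, 128 and 116 CPM against 88.5, 39.2, 47.1 and 41.2 CPM. Here too no library crossed over, and Mif-2-/-Apoe-/- replicate 1 was well above the other 3 of its group (1.16 ± 0.34 SE, adjusted p 0.156 in edgeR, 0.00550 in DESeq2).

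Hsd17b4, the D-bifunctional enzyme gene, was at 449.9, 395, 332, 490.4 and 124 CPM in Apoe-/- replicates 1 to 5 and at 151, 206, 124 and 113 CPM in Mif-2-/-Apoe-/- replicates 1 to 4. Apoe-/- replicate 5 alone fell into the other range, and without it the log2 fold change went from 1.27 ± 0.38 (SE, edgeR adjusted p 0.169) to 1.49 (edgeR adjusted p 0.0365). Hsdl2, a little characterized peroxisomal dehydrogenase-like gene, was low, at 8.92 to 28.3 CPM against 2.52 to 11.4 CPM (1.75 ± 0.71 SE, edgeR adjusted p 0.263).

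Acaa1b read 11074, 11216, 7393, 9603 and 10440.3 CPM in Apoe-/- replicates 1 to 5 and 13560.3, 6788, 9783 and 12502 CPM in Mif-2-/-Apoe-/- replicates 1 to 4, and Acaa1a 614 to 1341 CPM against 775 to 1474 CPM. The libraries of both genotypes overlapped widely (log2 fold changes -0.10 ± 0.32 and -0.12 ± 0.32, SE). The longest aligned part of their main transcripts is 96.0% identical, and 26.0% of the 100-base stretches of Acaa1b and 9.72% of those of Acaa1a also occur in another annotated gene, mostly the other thiolase, so their counts are uncertain against each other. Abcd3, a transporter of the peroxisomal membrane, was at 0.31 ± 0.33 and the reductase gene Decr2 at 0.17 ± 0.34 on the log2 fold change scale. Pex11a was at or under 2.52 CPM everywhere and had no count in 3 libraries, where a count of 0 allows up to 3 counts (0.300, 0.368 and 1.29 CPM of all counts), so its fitted fold change is not interpreted.

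**Figure D4:**
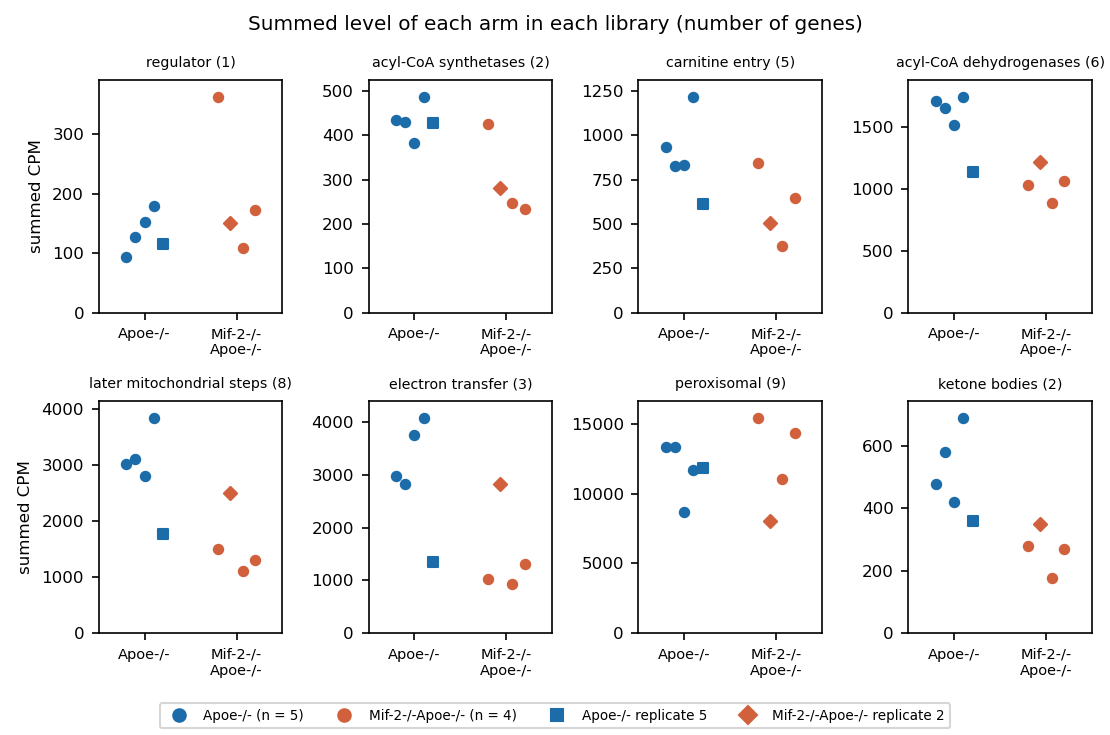
Summed TMM-normalized CPM of the genes of each arm (number of genes in brackets) in each library, on linear axes from 0; the square is Apoe-/- replicate 5 and the diamond Mif-2-/-Apoe-/- replicate 2. The electron transfer sum is 2823 to 4077 in 4 Apoe-/- libraries and 1355 in replicate 5, against 936 to 1313 in 3 Mif-2-/-Apoe-/- libraries and 2824 in replicate 2, whereas the peroxisomal sum, mostly Acaa1b, shows no such order.

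Both ketone body genes were higher in Apoe-/- at an unadjusted p under 0.05. Bdh1, the mitochondrial hydroxybutyrate dehydrogenase gene, read 277, 365, 238, 444 and 282 CPM in Apoe-/- replicates 1 to 5 and 194, 218, 129.5 and 196 CPM in Mif-2-/-Apoe-/- replicates 1 to 4. The genotypes did not overlap, though the gap between 218 and 238 CPM was small (0.80 ± 0.30 SE, adjusted p 0.227 in edgeR, 0.0545 in DESeq2). Acat1, the mitochondrial acetoacetyl-CoA thiolase gene, which also acts in isoleucine breakdown, gave 201, 216, 181, 246 and 77.8 CPM against 87.0, 133, 47.6 and 74.5 CPM. Apoe-/- replicate 5 was again the only Apoe-/- library inside the other range (1.11 ± 0.39 SE, edgeR adjusted p 0.204).

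Ratios of 2 members within a library do not depend on the scaling between libraries, and 8 pairs of partners or alternatives were compared on log2 counts plus 0.5. None passed after adjustment over the 8 pairs. The ratio of Etfa to Etfb was 1.07 higher on the log2 scale in Apoe-/- (-4.85 ± 0.164 against -5.92 ± 0.839, SD; two-sided exact permutation p 0.0238, adjusted 0.0952). Cpt1a relative to Crot was lower by a difference of -0.999 (0.623 ± 0.394 against 1.62 ± 0.333, SD; exact permutation p 0.0238, adjusted 0.0952), and relative to Cpt2 by -0.94 (exact permutation p 0.111, adjusted 0.178). Acadvl to Acads differed by -0.88 (exact permutation p 0.0635, adjusted 0.169), Ehhadh to Hsd17b4 by 0.62 (exact permutation p 0.159, adjusted 0.212) and Hadha to Hadhb by 0.48 (exact permutation p 0.0952, adjusted 0.178). For Acat1 to Bdh1 the difference was 0.31 and for Acaa1b to Acaa1a 0.06, with exact permutation p of 0.373 and 0.683. In the ratios of Etfa to Etfb, Hadha to Hadhb and Cpt1a to Cpt2, Mif-2-/-Apoe-/- replicate 2 lay among the Apoe-/- libraries. In that of Cpt1a to Cpt2, Apoe-/- replicate 5 also lay among the Mif-2-/-Apoe-/- libraries.

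**Figure D5:**
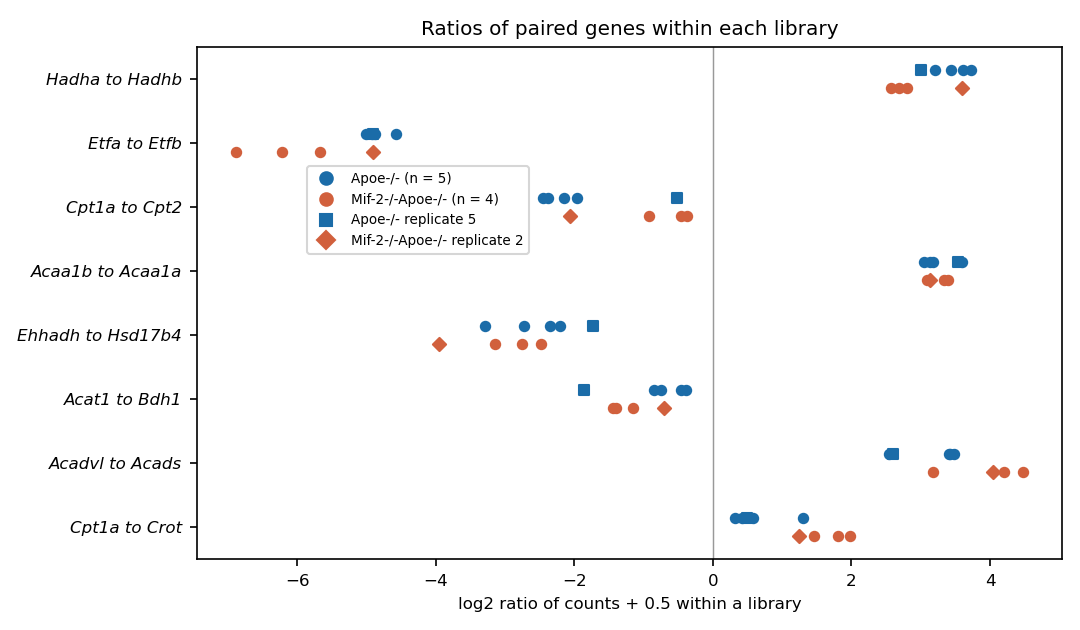
Log2 ratio of counts plus 0.5 of 2 genes within each library, for 8 pairs, with Apoe-/- libraries in blue and Mif-2-/-Apoe-/- libraries in orange; the square is Apoe-/- replicate 5 and the diamond Mif-2-/-Apoe-/- replicate 2. The Etfa to Etfb ratio lies between -5.00 and -4.57 in Apoe-/- libraries and spreads from -6.88 to -4.90 in Mif-2-/-Apoe-/- libraries.

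Other genes of the same steps were taken from lists of the pathway. Beside their counts at an unadjusted p under 0.05 stand 6.52% of all genes higher and 8.99% lower in Apoe-/-. Of 14 other regulators, edgeR called 0 and DESeq2 1, and at an unadjusted p under 0.05 none was higher and 2 were lower in Apoe-/- (median log2 fold change -0.40). The lowest p was that of Ppargc1b, a coactivator of oxidative genes, with 12.4 ± 6.78 CPM over the 5 Apoe-/- and 68.1 ± 21.8 CPM over the 4 Mif-2-/-Apoe-/- libraries (mean ± SD; log2 fold change -2.47 ± 0.48 SE, adjusted p 0.0731 in edgeR, 1.1e-04 in DESeq2), and Ppard, a related receptor, led the higher side (1.19 ± 0.58 SE, edgeR adjusted p 0.340). Of 18 tested activation and transport genes, 4 were higher and 2 lower at an unadjusted p under 0.05, led by Slc27a5, a bile acid and very-long-chain acyl-CoA synthetase gene (1.14 ± 0.36 SE), and Acss2, which makes acetyl-CoA from acetate in the cytosol (-1.53 ± 0.38 SE). Their adjusted p were 0.175 and 0.132 in edgeR, 0.0396 and 2.4e-04 in DESeq2.

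Of 14 other mitochondrial genes 4 were higher and 0 lower at an unadjusted p under 0.05 (median 0.44), and of 31 other peroxisomal genes 5 and 0 (median 0.19). Pcca, a propionyl-CoA carboxylase subunit gene, led the mitochondrial list (2.30 ± 0.64 SE, edgeR adjusted p 0.147), and Scp2, the peroxisomal sterol carrier thiolase gene, led the peroxisomal list (1.73 ± 0.47 SE, edgeR adjusted p 0.144). On the lower side stood Ivd, an enzyme gene of leucine breakdown (-0.63 ± 0.32 SE), and Acox3, an oxidase gene for branched chains (-1.33 ± 0.67 SE), with edgeR adjusted p of 0.363 and 0.357. Of 7 other ketone body genes 1 was higher and 0 lower (median 0.48), and Aacs, which uses acetoacetate for lipid synthesis, was at -0.81 ± 0.44 (SE, edgeR adjusted p 0.394).

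Known PPARalpha target genes outside these steps gave the only call by edgeR in any of these pathway lists. Of 17 such genes, 14 were above 0 (median log2 fold change 1.02), beside 43.5% of all genes. At an unadjusted p under 0.05, 7 were higher and 1 lower, beside 6.52% and 8.99% of all genes. The genotypes did not overlap at 5, all higher in Apoe-/-, beside 2.24% of all genes. The 17 genes summed to 7132 CPM in Apoe-/- replicate 5 and 17016 to 28552 in the other Apoe-/- libraries. They summed to 22399 CPM in Mif-2-/-Apoe-/- replicate 2 and 4276 to 7137 in the other Mif-2-/-Apoe-/- libraries. Cyp4a14, a fatty acid omega-hydroxylase gene, averaged 498 ± 163 CPM over the 5 Apoe-/- and 122 ± 44.8 CPM over the 4 Mif-2-/-Apoe-/- libraries (SD; 2.03 ± 0.36 SE, adjusted p 0.0450 in edgeR, 2.2e-06 in DESeq2). Acot3, a peroxisomal acyl-CoA thioesterase gene, went the other way (-1.40 ± 0.36 SE, adjusted p 0.138 in edgeR, 0.00828 in DESeq2). In the electron transport chain, all 48 tested of 49 respiratory chain genes lay above 0 (43.5% of all genes), with a median of 1.16. At an unadjusted p under 0.05, 32 were higher (6.52% of all genes), led by Sdhc (1.73 ± 0.37 SE, adjusted p 0.104 by edgeR). DESeq2 called 9 of the 48 higher (2.52% of all genes with an adjusted p), and the genotypes did not overlap at 3 (2.24% of all genes). Their summed level was 10745 CPM in Apoe-/- replicate 5 and 24026 to 33745 in the other Apoe-/- libraries, and 20753 CPM in Mif-2-/-Apoe-/- replicate 2 and 6468 to 11078 in the other Mif-2-/-Apoe-/- libraries. Of 17 genes of the tricarboxylic acid cycle, 12 were above 0 (median 0.48), led by Mdh2 (1.46 ± 0.30 SE, edgeR adjusted p 0.0897).

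Markers of other cell types were also summed in each library. Macrophage markers (12 genes, led by Clec4f) summed to 1400 to 2310 CPM of all counts in Apoe-/- and 1559 to 1755 in Mif-2-/-Apoe-/- libraries. The sum of the endothelial markers (8 genes, led by Stab1) ran opposite to that of the hepatocyte markers. It was 457 to 712 CPM in Apoe-/- libraries and lowest in Mif-2-/-Apoe-/- replicate 2 at 316 CPM. In Mif-2-/-Apoe-/- replicates 1, 3 and 4 it was 1102, 1099 and 991 CPM, all above every Apoe-/- library. The 8 genes did not share a direction: 4 had a log2 fold change above 0, and the median was 0.084. Stab1 was at -0.44 ± 0.44 and Clec4g at 1.04 ± 0.62 (SE). Stellate (8 genes, led by Col1a1) and cholangiocyte markers (5, led by Spp1) overlapped between genotypes. Lymphocyte markers (7 genes) summed to 15.3 to 17.8 CPM in Apoe-/- and 23.7 to 27.99 CPM in Mif-2-/-Apoe-/- libraries, with Cd3g at 0 counts in 2 libraries. These sums rest on few counts, and different genes were highest in different libraries. Cd3e had 46 counts in Mif-2-/-Apoe-/- replicate 2, and Ms4a1 had 56 in Mif-2-/-Apoe-/- replicate 3. Of the 7 genes, 3 had a log2 fold change above 0, with Nkg7 at 1.99 ± 1.11 and Cd3e at -4.81 ± 1.58 (SE). The adipocyte hormone gene Lep had 0 counts in 7 of 9 libraries. Muscle markers summed to at most 70.0 CPM and red blood cell markers to at most 222 CPM. The part of these cells in the results was not tested.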

How the data were processed

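Liver RNA of 5 Apoe-/- and 4 Mif-2-/-Apoe-/- libraries was measured by bulk sequencing. The authors deposited raw counts per Entrez gene, made, per the labels' processing notes, with FastQC, cutadapt and HISAT2 on mm10; reads over gene exons were counted, per the study's methods. Aligner version, strand setting and the treatment of reads shared by genes are not given in the sources used here. The study counts 4 mice per group for these data, whereas 5 Apoe-/- libraries were deposited, and all 5 were used. Of its lines, 27179 carried an Entrez gene and 1 carried no identifier and was dropped; 25275 genes matched a RefSeq symbol.

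A gene entered the test if 3 or more libraries of a genotype had a count, and edgeR 4.0.16 was used (quasi-likelihood, TMM) without the 10 most abundant genes, and p-values were adjusted by Benjamini-Hochberg over 16860 genes. The study's reporting summary gives both filters for its bulk RNA-seq, but its methods describe them only for a separate set of liver lysates and name DESeq2 for the sections used here. The common biological coefficient of variation was 0.909. DESeq2 1.42.0 ran on all genes with a count (14030 received an adjusted p; those without stay out of its counts). Ratios were tested by two-sided exact permutation over all arrangements of the libraries. CPM per kilobase used GENCODE M21 exon unions, and sequences came from RefSeq (GRCm38.p6, the same assembly as mm10). The fit was tested on simulated data. Floors cover counting error only.

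The members and all lists were chosen with earlier results of these data known, so their counts and medians are descriptions. Named genes are all members, Ddt, and the gene with the smallest edgeR p in each direction of each list; of the marker lists, the most abundant genes and defining markers without counts. Some genes that this rule picks are not reported here.

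Same-numbered libraries of the 2 genotypes did not deviate together (correlations across genes 0.14, -0.02, 0.01 and -0.03), so numbers were not treated as pairs. Alternatives were other normalizations, filters, thinned counts, a replicate block, DESeq2, pseudocount 1, each library left out and, chosen after seeing the data, the share of the 10 most abundant genes as a covariate.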

Additional observations from a re-analysis of the deposited data

Results flagged for a closer look

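Among 90 sets of 4 or 5 libraries checked for a value far from the rest, 8 were singled out by Dixon's rule; chance singles out about 1 in 20. In Mif-2-/-Apoe-/- replicate 1, Crot (83.0 CPM, next 36.6 CPM) and Acox2 (88.5 CPM, next 47.1 CPM) lay far above the other 3 libraries of the genotype. In Mif-2-/-Apoe-/- replicate 2, Acaa2 (956 CPM, next 428 CPM) and Etfa (90.9 CPM, next 18.9 CPM) did. Acadvl was far below the other Apoe-/- libraries in Apoe-/- replicate 5 (741 CPM, next 1028 CPM).

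On the log2 ratio scale, Etfa to Etfb was -4.57 in Apoe-/- replicate 3 (next -4.88), Cpt1a to Cpt2 was -0.52 in Apoe-/- replicate 5 (next -1.959) and Cpt1a to Crot was 1.31 in Apoe-/- replicate 4 (next 0.578), each above the rest of its genotype. Apoe-/- replicate 5 and Mif-2-/-Apoe-/- replicate 2, which account for 4 of the 8 values, are the libraries whose share of counts in the 10 most abundant genes stood apart (14.7% and 26.3%).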

How the results depend on the processing

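The members' median log2 fold change stayed between 0.50 and 0.89 and the count of members called by edgeR at 0 under every alternative other than those that follow. With libraries scaled to hepatocyte markers, 2 members were higher and 3 lower at an unadjusted p under 0.05, 18 lay above 0, 3 did not overlap, the median was 0.016 (all genes -0.84), and the sign turned for Acsl1 (-0.46), Slc25a20 (-0.56), Cpt2 (-0.026), Acadvl (-0.20), Acadm (-0.13), Acad11 (-0.21), Hadha (-0.19), Hadhb (-0.73), Abcd3 (-0.40) and Decr2 (-0.57). DESeq2 called 8 members, and it is the only one of these alternatives with its counts over all genes given above. With a replicate block, edgeR called 7 and Etfdh was 0.52, and only replicate 1 had its own number as best partner. In that model Apoe-/- replicate 5, the only library with its number, has a term of its own. It therefore did not enter the genotype contrast, and the cause of the added calls was not tested. Leaving out each library in turn gave 0 to 2 members called, 9 to 19 higher and 0 to 1 lower at an unadjusted p under 0.05, and 6 to 15 without overlap; the lowest of these counts at an unadjusted p came without Mif-2-/-Apoe-/- replicate 3. In those fits Etfdh ranged from -0.36 to 0.42, Acaa1a from -0.20 to 0.12, Acaa1b from -0.14 to 0.034 (6 fits, since it was left out of the others), Cpt1a from -0.40 to 0.051, Decr2 from -0.029 to 0.37 and the difference of the Acaa1b to Acaa1a ratio from -0.017 to 0.12, each crossing 0. Under TMMwsp normalization, Etfdh (0.11), Acaa1a (0.073) and Acaa1b (0.092) changed sign. With the abundant-gene share as a covariate, 33 members lay above 0, and Cpt1a (0.084), Slc25a20 (-2.7e-04), Acad10 (0.17), Etfdh (0.39), Acaa1a (0.014), Acaa1b (0.11) and Pex11a (0.47, not interpreted at its counts) changed sign.

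Precision was limited by 5 against 4 libraries, a common coefficient of variation of 0.909 and totals down to 2318148 counts, and low genes such as Pex11a, Etfdh and Hsdl2 have wide errors. The labels do not tie libraries to separate mice. The peroxisomal median, 0.31, was 0.93 without Apoe-/- replicate 3, 0.82 without Apoe-/- replicate 4 and 0.75 without Mif-2-/-Apoe-/- replicate 2, fits in which Acaa1b was among the genes left out, and 0.55 and 0.15 without Mif-2-/-Apoe-/- replicates 1 and 3. Without Mif-2-/-Apoe-/- replicate 2 the medians of the later mitochondrial steps and of electron transfer were 1.19 in place of 0.78 and 1.55 in place of 0.97, and without Mif-2-/-Apoe-/- replicate 1 the value of Ppara was -0.12 in place of -0.58.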
